A study of Mus musculus with 92 samples.

Results

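A set of 10 genes that carry fatty acids into muscle and burn them was followed through the quadriceps of 92 mice: Lpl, Angptl4, Cd36, Fabp3, Acsl1, Cpt1b, Acadl, Hadha, Pdk4 and Ucp3. They were chosen by name, and 10 of the 10 were found among the 13441 genes of the deposited expression table. The animals were DOz mice, a Diversity Outbred stock in which each mouse carries its own mixture of founder alleles. All had eaten standard chow for life, were about 18 to 20 weeks old and had quadriceps RNA sequenced from polyadenylated transcripts. The study concerns long-chain ceramides of muscle in relation to insulin resistance of the whole animal. The labels give 1 group, so the data describe how the genes differed between animals and which of them moved together. Feeding state and the hour of dissection are not given in the sources used here. The p-values measure covariation over these animals.

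Muscle takes up fatty acids that are released from circulating triglyceride at the capillary wall or delivered bound to albumin. Inside the fibre they are joined to coenzyme A, carried across the mitochondrial membranes as carnitine esters and shortened stepwise by beta-oxidation, which feeds electrons to the respiratory chain. During fasting or exercise, muscle turns from glucose to fat. Nuclear receptors of the PPAR family, FoxO factors and the glucocorticoid receptor are known to raise several of these genes at that time, Pdk4 and Angptl4 among them.

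The upstream sequence of 4 of the genes is shown first: Pdk4 and Ucp3, which had the closest relation of any pair below, and Cd36 and Acadl, from the uptake and oxidation steps. The sequences are RefSeq's (GRCm38.p6), 5′ to 3′ on the strand of the gene, and end just before the annotated start or the first annotated exon base. Capitals mark AGGTCA on either strand, the core letters that PPAR and related nuclear receptors recognise. The windows are Pdk4 at chr6:5496310-5496528 (minus strand), Ucp3 at chr7:100472741-100472989 (plus strand), Cd36 at chr5:17835897-17836146 (minus strand) and Acadl at chr1:66863310-66863559 (minus strand).
Pdk4: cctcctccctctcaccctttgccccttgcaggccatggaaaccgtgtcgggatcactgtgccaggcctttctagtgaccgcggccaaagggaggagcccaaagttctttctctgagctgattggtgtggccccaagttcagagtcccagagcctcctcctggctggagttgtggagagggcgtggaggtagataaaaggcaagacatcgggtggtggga
Ucp3: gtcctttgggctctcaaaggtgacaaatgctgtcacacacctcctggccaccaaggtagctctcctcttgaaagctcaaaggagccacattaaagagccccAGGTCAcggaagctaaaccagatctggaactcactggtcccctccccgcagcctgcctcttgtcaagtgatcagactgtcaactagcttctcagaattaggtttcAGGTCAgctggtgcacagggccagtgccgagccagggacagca
Cd36: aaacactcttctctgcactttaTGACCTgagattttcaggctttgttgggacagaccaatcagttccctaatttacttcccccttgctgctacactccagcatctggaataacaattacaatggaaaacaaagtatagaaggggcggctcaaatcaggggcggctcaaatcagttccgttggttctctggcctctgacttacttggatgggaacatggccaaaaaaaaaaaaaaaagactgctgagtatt
Acadl: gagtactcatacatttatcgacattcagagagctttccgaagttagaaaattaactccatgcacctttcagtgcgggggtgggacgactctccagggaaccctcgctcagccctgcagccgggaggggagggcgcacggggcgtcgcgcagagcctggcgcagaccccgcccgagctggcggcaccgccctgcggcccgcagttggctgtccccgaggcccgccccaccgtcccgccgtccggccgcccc

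The search covered the 250 bases before the start of 7 of the 10 genes. AGGTCA lay 2 times before Ucp3, with first bases 149 and 44 bases upstream of the start, and 1 time before Cd36, on the opposite strand. The Pdk4, Acadl, Fabp3, Hadha and Acsl1 windows held 0 matches. Of 32851 mouse windows of the same length, 14.02% held it on at least 1 strand. The direct repeat of AGGTCA with 1 base between the copies, which PPAR binds with its partner RXR, was in 0.0335% of those windows, the TCAAGGTCA letters of the estrogen-related receptors in 0.387% and the FoxO letters GTAAACA in 3.17%. None of these 3 longer words was in a window of the 7 genes. The words overlap, since AGGTCA is contained in the first 2. A match is a description of the letters, and Lpl, Cpt1b and Angptl4 were not searched. The whole 250 bases were searched, exon bases included, although those are not printed. The Cd36 window precedes a start that lies inside the annotated span of the gene (17781690 to 17888801), which has other starts farther upstream.

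The expression values are log2 levels on a per-million scale, so a difference of 1 is a factor of 2. The spread over animals differed between the 10 genes. From lowest to highest animal, the range was 30.2-fold for Angptl4, 26.2-fold for Pdk4 and 6.66-fold for Ucp3, with Fabp3 next at 5.62-fold. Cpt1b, the gate of mitochondrial entry, had the narrowest range at 2.22-fold, close to Acsl1 (2.43-fold) and Hadha (2.52-fold).

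Among the genes of uptake, Lpl encodes lipoprotein lipase, which frees fatty acids from triglyceride at the vessel wall. Its level was lowest at 7.96, had a median of 9.16 and was highest at 9.91, with a mean of 9.11 ± 0.33 (SD, n = 92). Angptl4 encodes a secreted protein that inhibits lipoprotein lipase. It ran from 0.19 through a median of 3.47 to 5.11 (mean 3.40 ± 0.91, SD, n = 92), a 30.2-fold range. On the linear scale that is from 1.14 through 11.1 to 34.5, the lowest median of the 10. At the low end the range depends on the prior count and depth, which are not given. The lowest animal, titled Geniad33, stood apart, since the next was at 1.19, and without it the range was 15.1-fold, while the 2 highest animals were close at 5.08 and 5.11. Cd36, the membrane protein that helps fatty acids across, had a lowest value of 6.65, a median of 8.16 and a highest of 9.0 (mean 8.16 ± 0.34, SD, n = 92). Here too 1 animal was far below, with the next at 7.24. Fabp3, which carries fatty acids through the cytosol, ran from 6.72 through 8.16 to 9.21 (mean 8.17 ± 0.44, SD, n = 92), a 5.62-fold range.

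Acsl1 joins long-chain fatty acids to coenzyme A and Cpt1b joins them to carnitine at the outer mitochondrial membrane. Acsl1 had a lowest level of 7.83, a median of 8.47 and a highest of 9.11 (mean 8.48 ± 0.27, SD, n = 92). Cpt1b had a lowest level of 7.36, a median of 7.99 and a highest of 8.51 (mean 7.99 ± 0.18, SD, n = 92). Its upper and lower quartiles were 1.13-fold apart, the closest of the 10. The annotation places an exon of Gm44502 over 575 bases of Cpt1b on the same strand, so reads there could have been divided between them.

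Acadl encodes the long-chain acyl-CoA dehydrogenase of the first step of beta-oxidation, and Hadha a subunit of the trifunctional protein of the later steps. Acadl ran from 6.83 through 7.79 to 8.98 (mean 7.84 ± 0.33, SD, n = 92) and Hadha from 7.77 through 8.42 to 9.10 (mean 8.43 ± 0.24, SD, n = 92). Hadha thus covered a 2.52-fold range and Acadl a 4.45-fold one.

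Pdk4 encodes a kinase that switches off pyruvate dehydrogenase and so holds back the burning of glucose. Its level was lowest at 7.05, had a median of 9.86 and was highest at 11.76 (mean 9.82 ± 0.97, SD, n = 92). On the linear scale that is from 133 through 932 to 3477 on the per-million scale, a 26.2-fold range. The lowest animal was again Geniad33, and without it the range was 16.5-fold. Ucp3, a carrier of the inner mitochondrial membrane from the uncoupling protein family, ran from 5.96 through 7.17 to 8.70 (mean 7.17 ± 0.61, SD, n = 92), a 6.66-fold range. The deposited table lists Ucp3 under a retained intron biotype.

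**Figure D1:**
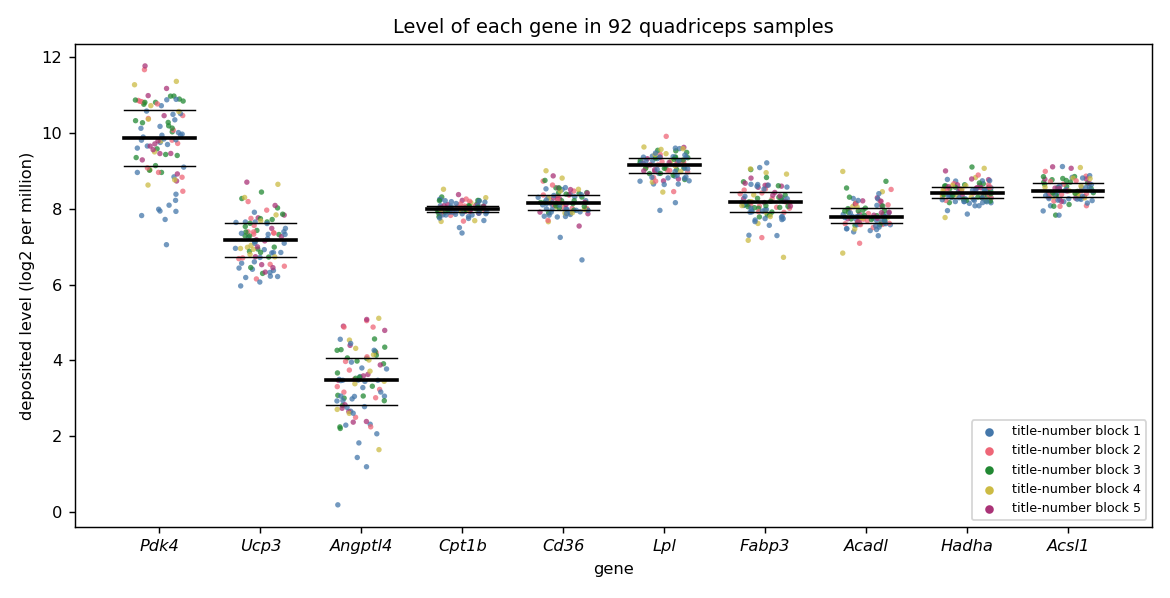
Level of each of the 10 genes (log2, per-million scale, vertical axis) in 92 quadriceps samples. Each point is 1 animal, coloured by the block of title numbers it falls in, thick lines are medians and thin lines the quartiles. Pdk4, Ucp3 and Angptl4 are spread widely and Cpt1b is narrow, between 7.36 and 8.51.

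The SD over animals depends on the level of a gene, so each SD was set against the trend over all genes at that level. Pdk4 lay 2.24 above the trend on the log2 scale of the SD, Angptl4 1.65, Ucp3 1.57 and Fabp3 1.10. Cpt1b lay at -0.18, the 1 gene of the 10 below it. The excess of Pdk4 was above that of 99.5% of all genes, and that of Ucp3 above 98.1%. In all, 9 of the 10 genes were above the trend, as were 48.99% of all genes, and their median excess was 0.71 against -0.01.

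Levels of different genes were compared after division by length, which takes the deposited values as not already divided by it. Their scaling is not given in the sources used here, so the order holds only under that reading. Per kilobase of the longest coding transcript, mean log2 levels were 8.45 for Fabp3, 8.02 for Pdk4, 7.07 for Lpl, 6.90 for Acadl, 6.52 for Acsl1, 6.46 for Cpt1b, 6.43 for Hadha, 6.40 for Cd36, 5.88 for Ucp3 and 1.67 for Angptl4. Of the 9 neighbouring steps in that order, 2 were larger than the SD of the difference over animals. Ucp3 was above Angptl4 by 4.21 ± 0.73 (SD, n = 92), in 92 of 92 animals. Acadl was above Acsl1 by 0.38 ± 0.28, in 87 of 92 animals. The steps between Acsl1, Cpt1b, Hadha and Cd36 were 0.06, 0.03 and 0.03, and the higher gene led in 50 to 55 of the 92 animals. With all annotated exons merged as the length, Lpl, Hadha and Acsl1 fell to 5.72, 5.31 and 5.09 per kilobase, and Cd36, at 6.32, stood above Cpt1b, at 6.24, so the order below Pdk4 depends on the gene model, with Angptl4 last by both lengths.

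Sample titles carry numbers that fall into 5 runs of 33, 14, 21, 11 and 13 animals. Their meaning is not given in the labels, and the runs were treated as a possible batch. None of the 10 genes differed between blocks in limma's F test after Benjamini-Hochberg adjustment, where 2 genes, or 0.0149%, passed. At an unadjusted p under 0.05 there were 3 of the 10, against 8.33% of all genes: Hadha (p = 0.00324), Pdk4 (p = 0.0348) and Angptl4 (p = 0.038). Pdk4 had a mean of 9.41 in the first block and of 9.92 to 10.14 in the other 4.

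Covariation between the genes was tested by fitting every gene of the table on the level of each of the 10 in turn with limma, adjusted over the 13440 other genes. A pair was called where each gene passed an adjusted p of 0.05 in the fit of the other. Of 45 pairs, 28 were called, all rising together, and the Pearson correlation was above 0 in 45 of 45. Pdk4, Ucp3 and Angptl4 formed 3 called pairs of 3, and Lpl, Cd36, Fabp3, Acsl1, Cpt1b, Acadl and Hadha formed 21 of 21. Between the 2 groups 4 pairs of 21 were called. This division was made after the values were seen and describes the matrix without a test.

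Each count reads against the share of all genes that passed in the same fit. In the fit on Pdk4, 3 of the 9 other genes passed with 6.01% of all genes, on Ucp3 4 with 7.0%, and on Angptl4 5 with 5.39%. In the fit on Lpl 6 passed with 3.81%, on Cd36 7 with 18.2%, on Fabp3 6 with 4.03% and on Acsl1 7 with 3.74%. In the fit on Cpt1b 6 passed with 4.29%, on Acadl 8 with 4.84% and on Hadha 6 with 2.53%. Cd36 had the most relations over the whole table, 2443 genes. Without Geniad55 and Geniad56, the 2 animals farthest in Cd36, there were 1219, and with 3 principal components as covariates 584, fewer than the 824 for Cpt1b.

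**Figure D2:**
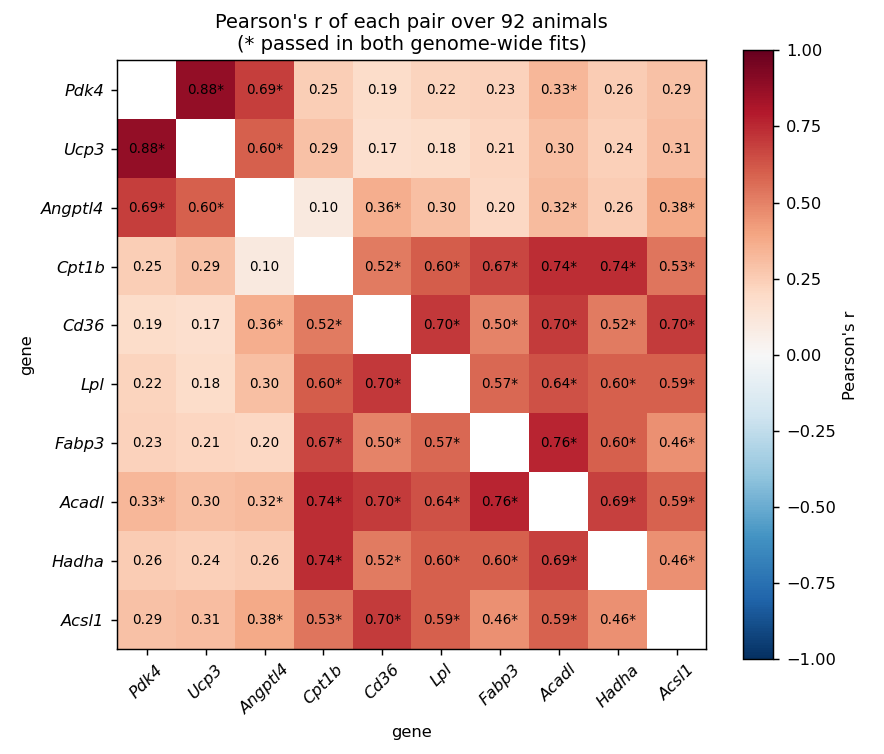
Pearson's r of each pair of the 10 genes over 92 animals, from blue (negative) to red (positive), with an asterisk where the pair passed in both fits. A dark square joins the 7 genes from Cpt1b to Acsl1, with r between 0.46 and 0.76, and a smaller one joins Pdk4, Ucp3 and Angptl4.

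Pdk4 and Ucp3 were the closest pair. Ucp3 rose by 0.53 ± 0.03 (SE) on the log2 scale for each SD of Pdk4 (adjusted p = 8.46e-28, limma), with r = 0.880 and rho = 0.888 (permutation p = 1e-05 for each, the smallest that 100000 resamples can give). Without the 2 animals farthest in Pdk4, r was 0.876. In the 5 blocks it lay between 0.829 and 0.925. The relation was not one for one, since Ucp3 changed by 0.55 for each log2 unit of Pdk4. Angptl4 rose with Pdk4 by 0.63 ± 0.07 per SD (adjusted p = 4.75e-11, limma; r = 0.691, rho = 0.646, permutation p = 1e-05), from r = 0.266 to 0.821 in the blocks. Without the 2 animals farthest in Pdk4 it was 0.646. Angptl4 rose with Ucp3 by 0.55 ± 0.08 per SD (adjusted p = 1.79e-07, limma; r = 0.599).

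**Figure D3:**
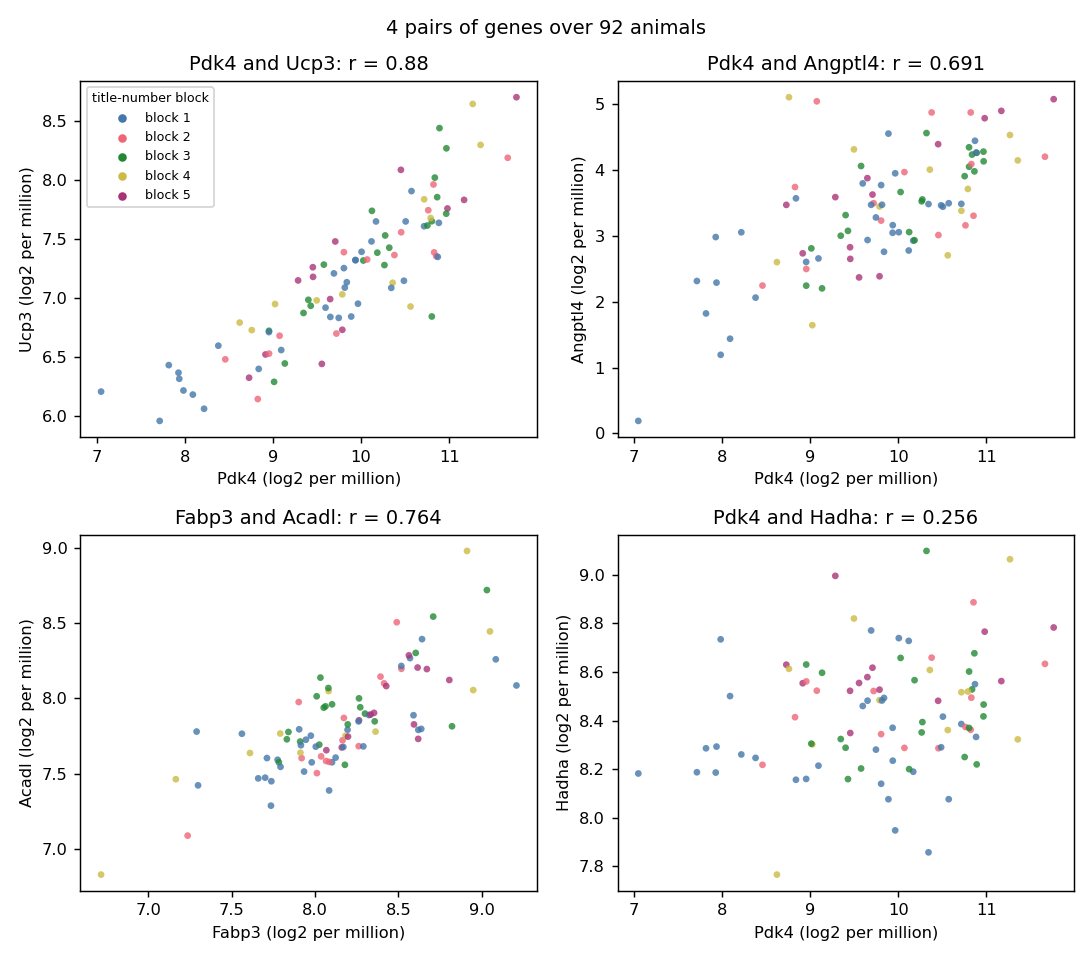
Levels (log2, per-million scale) of 4 pairs of genes in 92 animals, 1 point per animal, coloured by title-number block. Pdk4 with Ucp3 (r = 0.880) and Fabp3 with Acadl (r = 0.764) form narrow bands, Pdk4 with Angptl4 (r = 0.691) a wider one, and Pdk4 with Hadha (r = 0.256) a broad cloud.

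Within the uptake and oxidation genes, r ran from 0.456 to 0.764 with a median of 0.601, and the permutation p was 1e-05 for each of the 21 pairs. The highest was between Fabp3 and Acadl (r = 0.764, rho = 0.737, 0.741 without the 2 animals farthest in Fabp3, 0.693 to 0.877 in the blocks). Cpt1b with Hadha had r = 0.741 (0.693 without the 2 animals farthest in Cpt1b, 0.568 to 0.808 in the blocks), and Cpt1b with Acadl had r = 0.737 (0.163 to 0.936 in the blocks). So Cpt1b, with the narrowest range of the 10, was among those most closely tied to its neighbours. Lpl and Cd36, which act in succession at the cell surface, had r = 0.704, or 0.599 without the 2 animals farthest in either gene. The lowest were Hadha with Acsl1 (r = 0.456) and Fabp3 with Acsl1 (r = 0.459). In 18 of the 21 pairs r was positive in all 5 blocks.

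Between the groups, r ran from 0.096 to 0.377 with a median of 0.255, and the unadjusted permutation p was under 0.05 in 16 of the 21 pairs. The 4 called pairs were Angptl4 with Acsl1 (r = 0.377), Angptl4 with Cd36 (r = 0.362), Pdk4 with Acadl (r = 0.335) and Angptl4 with Acadl (r = 0.320). In the first block of 33 animals, those r were 0.113, -0.011, -0.083 and -0.079. Without the 2 animals farthest in the predictor, neither pair with Acadl was called. The correlation of Pdk4 with Acadl, 0.335 in all animals, was 0.331 without Geniad33 and Geniad25 (farthest in Pdk4) and 0.277 without Geniad343 and Geniad366 (farthest in Acadl). That of Angptl4 with Acadl, 0.320 in all, was 0.368 without Geniad33 and Geniad11 (farthest in Angptl4) and 0.282 without the 2 farthest in Acadl. With title-number block as a covariate, only the pair Angptl4 and Acsl1 was still called, and with marker scores or 3 principal components as covariates 0 of the 21. With block removed, r was 0.287 for Pdk4 with Acadl, 0.295 for Angptl4 with Cd36 and 0.277 for Angptl4 with Acadl. With marker scores removed, Angptl4 with Cd36 was at 0.155, and the other 3 pairs were between 0.255 and 0.277. With the components removed, the 4 were between 0.170 and 0.283. These alternatives left 3 of 3 calls among Pdk4, Ucp3 and Angptl4, and 19 to 21 of 21 among the others.

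The 4 differences between correlations chosen for test were examined directly by swapping 2 genes within animals (two-sided permutation, 100000 resamples, adjusted over the 4). Pdk4 was more closely related to Ucp3 than to Hadha, by 0.624 in r (p = 1e-05, adjusted p = 4e-05). It was more closely related to Angptl4 than to Hadha, by 0.436 (p = 0.00152, adjusted p = 0.00304). Hadha was more closely related to Acadl than to Pdk4, by 0.431 (p = 0.00259, adjusted p = 0.00345). Cd36 had r = 0.704 with Lpl and 0.523 with Hadha, and the difference of 0.181 did not pass (adjusted p = 0.15). The 3 differences that passed all use the same low correlation, that of Pdk4 with Hadha (r = 0.256), so they are not separate results. Since these contrasts were chosen with earlier results of the data known, their p-values are not independent evidence for the division into groups.

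The genes outside the 10 with the nearest pattern were looked up for each by Pearson's r over the 92 animals, among 11106 genes with a mean of at least 1. For Pdk4 they were Tmem140 (r = 0.662), the autophagy gene Gabarapl1 (0.644) and Acot2 (0.634), a mitochondrial acyl-CoA thioesterase. For Ucp3 they were Wbp1l (0.645), Acot2 (0.637) and Alpk2 (0.632). The most negative were the transcriptional coactivator Mrtfa for Pdk4 (-0.650) and the BMP co-receptor Rgma for Ucp3 (-0.647). No outside gene thus came as close to Pdk4 as Ucp3 did. For Angptl4 the nearest were Fabp4 (0.618), Lipe (0.618) and Pck1 (0.606), a fatty acid carrier, a lipase and phosphoenolpyruvate carboxykinase, which fat cells express strongly. The muscle chloride channel Clcn1 was its most negative (-0.620).

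Etfdh, which passes electrons from the acyl-CoA dehydrogenases to ubiquinone, was the nearest gene to Cpt1b (r = 0.829), Acadl (0.821), Hadha (0.767) and Lpl (0.727). Acadvl, the very long-chain dehydrogenase, was among the nearest 3 for Cpt1b (0.770), Acadl (0.797) and Hadha (0.709). Hadhb, the other subunit of the trifunctional protein, had r = 0.711 with Hadha. Cpt1b was also close to the thiolase Acat1 (0.779), and Lpl to Etfa (0.684) and the epoxide hydrolase Ephx2 (0.679).

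The mitochondrial carrier Slc25a34 was nearest to Fabp3 (r = 0.781) and to Acsl1 (0.628), and had r = 0.761 with Acadl. Plin5, a coat protein of lipid droplets at mitochondria, had r = 0.757 with Fabp3 and 0.603 with Acsl1. The Z-disc protein Actn2 (0.733) completed the list for Fabp3, and Perm1 (0.616) that for Acsl1. For Cd36 the nearest were the medium-chain dehydrogenase Acadm (0.717), the endothelial receptor Adgrl4 (0.699) and Lpgat1 (0.687). Without the 2 animals farthest in Cd36 these were 0.630, 0.575 and 0.589. Pvalb, the calcium buffer of fast fibres, was the most negative for Cd36 (-0.683) and Acadl (-0.660). The other negative ends were Aplp2 for Cpt1b (-0.500) and Fabp3 (-0.540), Jph2 for Lpl (-0.513), Acvr1 for Hadha (-0.460) and Casq1 for Acsl1 (-0.494).

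In all, 11 lists of related genes, with 128 of 134 measured, were counted in the same 10 fits. The share of all genes that rose was 3.0% in the fit on Pdk4, 3.11% on Ucp3, 3.35% on Angptl4, 3.42% on Cpt1b, 10.2% on Cd36, 2.74% on Lpl, 2.86% on Fabp3, 3.21% on Acadl, 2.26% on Hadha and 2.25% on Acsl1. Over all genes the median r was between -0.012 and 0.004 in each fit.

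Of 15 other genes of mitochondrial beta-oxidation, 12 rose with Cpt1b, Cd36, Lpl, Acadl and Hadha and 11 with Fabp3 and Acsl1. With Pdk4, Ucp3 and Angptl4 there were 1, 2 and 2. The list's median r was 0.64 with Acadl, 0.61 with Fabp3 and 0.11 with Pdk4. The isomerase Eci1 was at r = 0.69 with Cpt1b, 0.70 with Acadl, 0.26 with Pdk4 and 0.33 with Ucp3. Eci2, another isomerase of the list, was at 0.67 with Fabp3 and 0.31 with Pdk4. With marker scores as covariates the count with Acsl1 was 2, where 0.417% of all genes passed.

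Of 13 genes of oxidative phosphorylation and the citrate cycle, 11 rose with Cpt1b, 10 with Hadha, 9 with Acadl, 8 with Fabp3 and 7 with Lpl. There were 2 with Cd36, 1 with Acsl1 and 0 with each of Pdk4, Ucp3 and Angptl4. The complex III subunit Uqcrc2 was at r = 0.68 with Cpt1b, 0.63 with Hadha and 0.09 with Pdk4. Citrate synthase, Cs, was at 0.61 with Cpt1b, 0.24 with Acsl1 and -0.01 with Pdk4. The count with Lpl was 2 without Geniad55 and Geniad56, the 2 animals with the lowest Lpl, and the share of all genes passing then went from 3.81% to 1.67%.

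Genes of the carnitine shuttle passed with both groups. Of 8 measured, 3 rose with Pdk4, 6 with Ucp3 and 4 with Angptl4, and 3 to 6 with the other genes. Mlycd, which removes the malonyl-CoA that blocks Cpt1b, was at r = 0.40 with Pdk4, 0.47 with Ucp3 and 0.54 with Fabp3. The carnitine carrier Slc25a20 was at 0.72 with Fabp3, 0.65 with Cpt1b and 0.24 with Pdk4, and Cpt2 at 0.65 with Acadl and 0.25 with Pdk4. In the uptake and activation list of 12 genes, 1 to 3 rose in each fit. Acot2 passed in all 10 fits, and the fatty acid transporter Slc27a1 in the 7 fits on the uptake and oxidation genes, with r of 0.19 to 0.26 in the other 3. Of 10 genes of peroxisomal oxidation 0 rose with Pdk4, 1 with Ucp3, 2 with Angptl4 and 2 to 5 with the others. The peroxisomal enzyme Hsd17b4 was at 0.59 with Cd36 and 0.20 with Pdk4.

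Of 12 genes around pyruvate dehydrogenase, the enzyme that Pdk4 inhibits, 1 rose and 1 fell with each of Pdk4, Ucp3 and Angptl4. The 1 that fell, named after its values were seen, was the phosphatase Pdp1, at r = -0.60 with Pdk4, -0.58 with Ucp3, -0.57 with Angptl4 and -0.04 with Cpt1b. Against these, 8 rose with Cpt1b, 7 with Hadha, 6 with Lpl and Acadl, 5 with Cd36, 4 with Acsl1 and 1 with Fabp3. Pdp2, the other phosphatase that reactivates the enzyme, rose with Pdk4, Ucp3 and Angptl4 and was at r = 0.40 with Pdk4 and 0.50 with Acsl1. The subunit Pdha1 was at 0.58 with Acadl and 0.19 with Pdk4, and Dlat at 0.55 with Cpt1b and 0.06 with Pdk4.

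Of 8 measured genes known to be induced by PPAR, 4 rose with Pdk4, 5 with Ucp3, 6 with Angptl4 and 3 or 4 with each of the others. Slc25a34 and Plin5 passed in all 10 fits. The triglyceride lipase Pnpla2 was at r = 0.48 with Angptl4, 0.56 with Cd36 and 0.24 with Pdk4. Of 12 PPAR regulators, 6 rose with Cpt1b, Cd36, Lpl and Acsl1, 5 with Acadl, 4 with Hadha, 3 with Angptl4 and 2 with Fabp3, Pdk4 and Ucp3. Cd36, Pdk4 and Ucp3 each had 1 falling. The coactivator Ppargc1a was at 0.51 with Pdk4 and Ucp3, 0.45 with Cd36 and 0.25 with Fabp3. Lpin1, a phosphatase that also acts as a coactivator, was at 0.53 with Pdk4, 0.59 with Ucp3 and 0.13 with Fabp3. The estrogen-related receptor Esrrb was at 0.66 with Cpt1b and 0.06 with Pdk4, and Esrrg at 0.64 with Lpl and 0.05 with Pdk4.

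Genes of the FoxO and atrophy list rose with Pdk4 (7 of 12), Ucp3 (6) and Angptl4 (3), and with the other 7 genes 0 or 1 did. The ubiquitin ligase Trim63 was at r = 0.59 with Pdk4, 0.61 with Ucp3 and 0.06 with Cpt1b. The cell cycle inhibitor Cdkn1a was at 0.36 with Pdk4, 0.35 with Angptl4 and 0.01 with Lpl. Of 11 glucocorticoid-induced genes 7 rose with Pdk4, 7 with Ucp3, 4 with Angptl4 and 0 to 3 with the others. Zbtb16 was at 0.62 with Pdk4 and 0.06 with Fabp3, and the receptor co-chaperone Fkbp5 at 0.45 with Pdk4, 0.49 with Ucp3 and 0.38 with Acadl. The metallothionein Mt1 was at 0.55 with Pdk4 and Angptl4, and 0.01 with Cpt1b. With 3 principal components as covariates, 1 FoxO gene and 0 glucocorticoid-induced genes passed with Pdk4, where 0.439% of all genes still did. In the same setting 0 of either list passed with Ucp3 (1.02% of all genes) and with Angptl4 (5.24%). The number of genes passing over the whole table thus fell with Pdk4 and Ucp3 and was near its former 5.39% with Angptl4. The genes themselves were largely others with Angptl4, since 207 of the 704 were among the 725 that passed without covariates. With Ucp3 53 of the 137 had passed before, and with Pdk4 43 of the 59. The components hold 47.2% of the variance of Pdk4, 46.8% of Ucp3, 43.1% of Cd36, 38.99% of Angptl4, 17.4% of Acsl1, 16.4% of Lpl, 10.3% of Acadl, 4.25% of Cpt1b, 2.69% of Hadha and 2.37% of Fabp3.

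Of 15 clock genes, 7 fell and 1 rose with Pdk4, 3 fell and 1 rose with Ucp3, and 7 fell with Angptl4, where 3.01%, 3.89% and 2.05% of all genes fell. With each of the other 7 genes at most 1 passed in either direction. Dbp, an output gene of the clock, was at r = -0.60 with Pdk4, -0.52 with Ucp3, -0.53 with Angptl4 and -0.12 with Hadha. Per3 was at -0.52 with Pdk4 and -0.13 with Hadha, and Bhlhe41 at -0.55 with Pdk4 and 0.03 with Lpl. With 3 principal components as covariates, 2 clock genes fell with Pdk4, 0 with Ucp3 and 7 with Angptl4, where 0.439%, 1.02% and 5.24% of all genes passed in either direction. The hour of dissection was not a variable in these fits, and its part in the result was not tested.

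**Figure D4:**
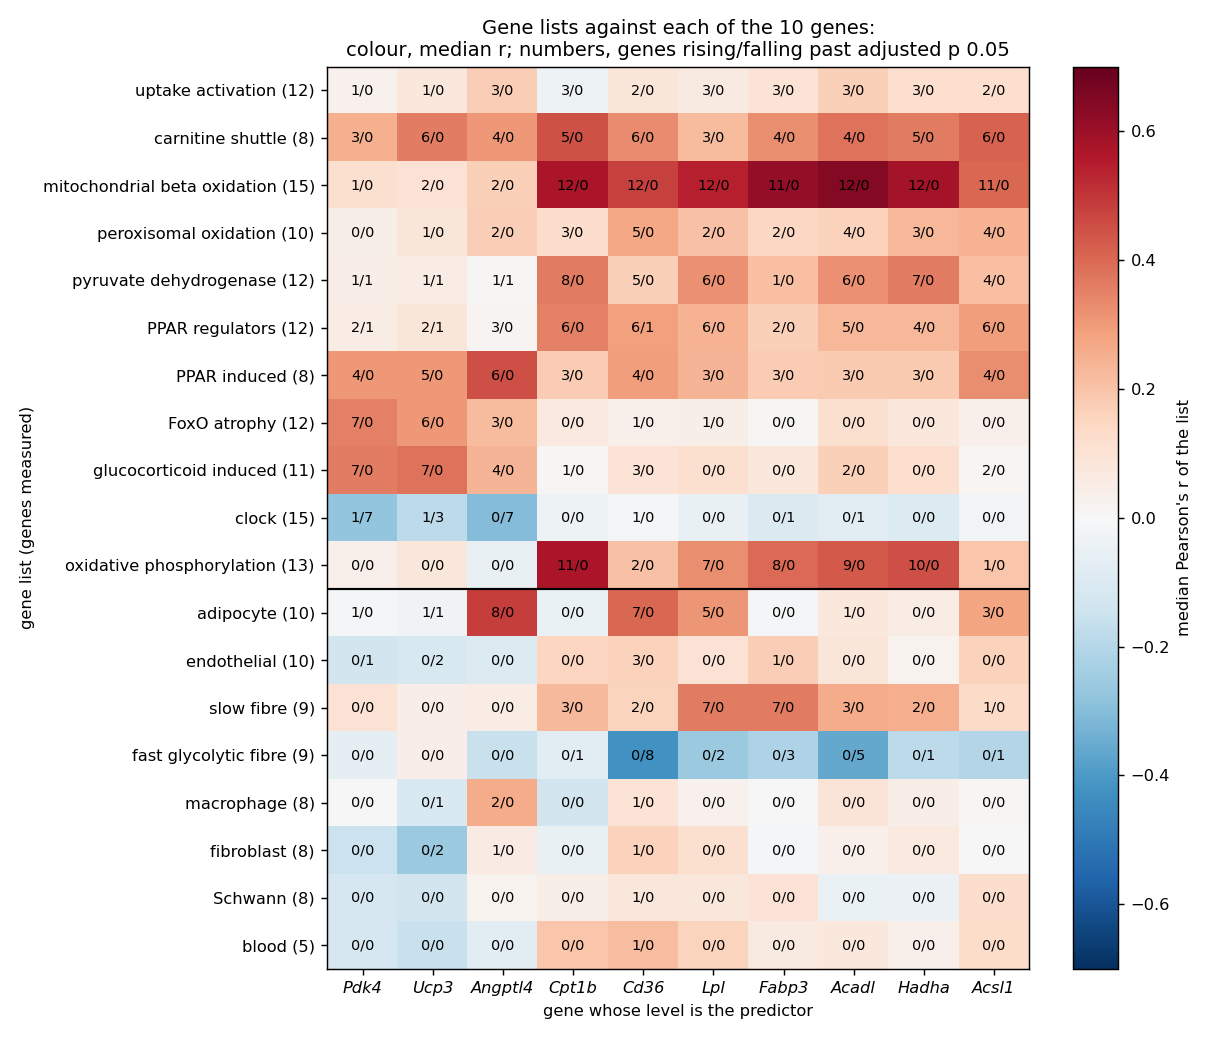
Gene lists (lines, with the number of measured genes) against each of the 10 genes (columns) over 92 animals: the colour is the list's median Pearson's r and the numbers count genes that rose and fell past an adjusted p of 0.05. Beta-oxidation and oxidative phosphorylation are red under Cpt1b and Acadl and pale under Pdk4, and the FoxO and glucocorticoid lists show the opposite.

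Quadriceps is mostly fast muscle with other cells between the fibres, and in such bulk samples fewer cells of a type and less RNA per cell cannot be told apart. Markers of fast glycolytic fibres summed to between 87880 and 187532 on the per-million scale (median 142246) and those of slow fibres to between 85.8 and 1741 (median 242), which matches the label. Of 9 slow fibre markers, 7 rose with Lpl, 7 with Fabp3, 3 with Cpt1b and Acadl, 2 with Cd36 and Hadha, 1 with Acsl1 and 0 with Pdk4, Ucp3 and Angptl4. Myoz2 was at r = 0.62 with Lpl and 0.20 with Pdk4, and Myl3 at 0.58 with Fabp3. Of 9 fast glycolytic markers, 8 fell with Cd36, 5 with Acadl, 3 with Fabp3, 2 with Lpl, 1 with Cpt1b, Hadha and Acsl1 and 0 with Pdk4, Ucp3 and Angptl4. Of all genes, 7.98% fell with Cd36, 1.63% with Acadl, 1.17% with Fabp3, 1.07% with Lpl, 0.863% with Cpt1b, 0.268% with Hadha and 1.49% with Acsl1.

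Of 10 adipocyte markers, 8 rose with Angptl4, 7 with Cd36, 5 with Lpl and 3 with Acsl1, and at most 1 with the other 6 genes. Their summed level ran from 489 through a median of 1223 to 3364 on that scale. Pck1 was at r = 0.61 with Angptl4, 0.40 with Cd36 and 0.12 with Pdk4. Without the 5 animals that were lowest or highest in several of the 10 genes, the counts were 8 for Angptl4, 6 for Cd36, 0 for Lpl and 0 for Acsl1. The shares of all genes passing were then 3.39%, 13.8%, 1.65% and 1.5%. Of 10 endothelial markers, 3 rose with Cd36 and 1 with Fabp3, while 1 fell with Pdk4 and 2 with Ucp3. Cdh5 of the endothelial junctions was at 0.34 with Cd36 and -0.32 with Ucp3. Macrophage, fibroblast, Schwann and blood markers passed 0 to 2 at a time.

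The 8 marker scores together held 59.6% of the variance of Cd36, 50.7% of Lpl, 42.01% of Angptl4 and 15.5% of Pdk4. After the scores were removed, r was 0.882 between Pdk4 and Ucp3 and 0.818 between Pdk4 and Angptl4, as high as before or higher. Within the other 7 genes it was between 0.309 and 0.753. With the scores as covariates, the pairs Fabp3 with Acsl1 and Hadha with Acsl1 were no longer called, with r of 0.309 and 0.374 after removal of the scores against 0.459 and 0.456 before.

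Single animals departed in particular genes. The animal titled Geniad55 was lowest in Cpt1b (7.36), Cd36 (6.65), Lpl (7.96) and Acsl1 (7.83), with Cd36 at 4.52 SD below the mean. Its Pdk4 level of 10.34 ranked 61 of 92 from the lowest. Geniad56 was second lowest in Cd36 (7.24) and Lpl (8.16). Geniad366 was lowest in Fabp3 (6.72), Acadl (6.83) and Hadha (7.77) and ranked 11 in Pdk4, 15 in Angptl4, 22 in Acsl1 and 26 in Ucp3. Geniad343 was highest in Cpt1b (8.51), Cd36 (9.0) and Acadl (8.98). From the lowest, Geniad343 also ranked 91 in Ucp3 and Hadha, 89 in Pdk4, 87 in Lpl and Fabp3, 83 in Angptl4 and 79 in Acsl1. Geniad452 was highest in Pdk4 (11.76) and Ucp3 (8.70), ranked 91 in Angptl4, 89 in Acsl1 and 87 in Hadha, 54 in Lpl and 52 in Cpt1b. Geniad33 was lowest in Pdk4 (7.05) and Angptl4 (0.19) and ranked 5 in Ucp3 and Lpl, 10 in Hadha, 24 in Cpt1b and 28 in Fabp3. Geniad343 was thus high in all 10 genes, with Acsl1 the nearest to its mean at 1.14 SD above. In Geniad366, Geniad452 and Geniad33, some high or low values lay in both groups of genes, and others were nearer the middle. Without Geniad366, Geniad343, Geniad452, Geniad33 and Geniad55, 25 pairs were called. They were 3 of 3 among Pdk4, Ucp3 and Angptl4, 21 of 21 among the others and 1 of 21 between, Angptl4 with Cd36.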

How the data were processed

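Quadriceps RNA of 92 animals was sequenced after KAPA mRNA HyperPrep preparation from 500 ng, per the labels' protocols. The deposited table holds log2 values; the unit was read from the values, which sum to between 898071 and 1140761 per sample on the linear scale. The submitters' processing notes name bcl2fastq, MultiQC, kallisto 0.50.1, edgeR and mm10, without their roles. The scaling, prior count and depth are not given in the sources used here, so no counting interval was computed. Removing 15 repeated lines of 13456 left 13441 genes.

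Limma 3.58.1 (R 4.3.3) fitted each gene on the standardised level of each of the 10 genes in turn, with moderation along a mean-variance trend and adjustment by Benjamini-Hochberg over all genes, and was tested on simulated data. Pearson's r and Spearman's rho were computed over animals. Alternatives were log2(value + 1), genes of mean at least 1, covariates (3 principal components, 8 marker scores, title-number block), ranks, and leaving out animals. Named outside genes are the 3 nearest and the 1 most negative per gene, up to 4 per pathway list passing in the most fits, and up to 2 per marker list. GENCODE M21 gave lengths and exons. The 10 genes, lists and tests were chosen with earlier results of these data known.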

Additional observations from a re-analysis of the deposited data

How the results depend on the processing

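Across the alternatives, between 22 and 29 pairs were called against 28, no slope between 2 of the 10 genes changed sign. The 3 differences of correlations that passed also did so with ranks, with block means removed, without the 2 farthest animals and without the 5 extreme ones, the alternatives run for them. Per kilobase of the longest coding transcript, mean levels became 8.02 for Pdk4, 5.88 for Ucp3, 1.67 for Angptl4, 6.46 for Cpt1b, 6.40 for Cd36, 7.07 for Lpl, 6.90 for Acadl, 6.43 for Hadha and 6.52 for Acsl1. Per kilobase of merged exons, chosen after seeing the data, they were 8.01, 5.52, 1.57, 6.24, 6.32, 5.72, 6.83, 5.31 and 5.09. Both divisions take the deposited values as not already divided by length. Genes called over the whole table moved more. With 3 principal components they went from 808 to 59 for Pdk4, 941 to 137 for Ucp3, 2443 to 584 for Cd36, 340 to 517 for Hadha and 502 to 303 for Acsl1. With marker scores they were 481 for Ucp3, 386 against 725 for Angptl4, 653 for Cd36, 216 against 512 for Lpl, 56 for Acsl1 and fewer by 2.27 times for Acadl (651), and with block 612 for Ucp3. Without the 2 farthest animals they were 570 for Ucp3, 1219 for Cd36, 225 for Lpl and 285 for Acsl1, and with ranks 1208 for Cd36, 243 for Lpl and 252 for Acsl1. Without the 5 extreme animals (Geniad366, Geniad343, Geniad452, Geniad33 and Geniad55), chosen after seeing the data, they were 519 for Pdk4, 566 for Ucp3, 455 for Angptl4, 222 for Lpl and 202 for Acsl1, and fewer by 1.70 times for Cpt1b (576) and 1.88 times for Hadha (340). The cause was not tested. No paired analysis was possible because the labels give 1 group.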

Other observations

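Some values were picked out after they were seen. The other pyruvate dehydrogenase kinases were not called with Pdk4: Pdk1 was at r = 0.02, Pdk2 at -0.10 and Pdk3 at 0.11. Ppara, the PPAR form best known for fat oxidation, was at r = 0.62 with Cd36, 0.60 with Lpl, 0.48 with Cpt1b and 0.17 with Pdk4. Ppard, the main form of muscle, passed in 0 of the 10 fits, with r of at most 0.31. Pparg, the fat cell form, was at 0.41 with Angptl4, 0.35 with Cd36 and -0.07 with Pdk4. Plin4, listed here as an adipocyte marker, was the 1 adipocyte marker that rose with Pdk4 (r = 0.46), and it was at 0.51 with Ucp3. Carnitine palmitoyltransferase Cpt1a, the liver form, was at r = 0.60 with Pdk4 and 0.28 with Cd36. In the first title-number block of 33 animals, the correlations of Pdk4, Ucp3 and Angptl4 with the 7 uptake and oxidation genes ranged from -0.269 (Ucp3 with Cd36) to 0.128 (Ucp3 with Hadha), and that of Pdk4 with Ucp3 was 0.911. Whether the blocks differ in these correlations was not tested.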
